A study of Saccharomyces cerevisiae with 7 samples.

Results

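The subject is the point in a glucose culture of the budding yeast Saccharomyces cerevisiae at which glucose had dropped well below its starting level but had not run out. It was followed through 1 array, taken at 15.5 h with 7.5 g/L glucose and 3.7 OD. That array was set against the mean of the arrays taken at 11.5 h, with 17.6 g/L glucose and 0.80 OD, and at 13.5 h, with 14.0 g/L and 1.8 OD. The genes described are those with a value on all 3 arrays, which held for 5174 of 5470 genes.

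The study measured total RNA over a time course of 7 samples by 2-colour hybridisation, 1 array per time point. Per the labels, the first channel of every array held 1 shared reference, RNA of cells harvested at 0.14 OD in the presence of 19 g/L glucose. No replicate exists at any time, the labels do not say whether 1 flask or several were sampled, and strain and medium are not stated in the labels. The other arrays were taken at 0, 9.5, 18.5 and 20.5 h, with 19, 18.7, 0.2 and 0 g/L glucose. They serve here mainly to place the levels, but also entered the choice of genes highest or lowest at 15.5 h among all 7 arrays. The 9.5 h array was also averaged into 1 alternative baseline.

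Budding yeast ferments glucose to ethanol even when oxygen is present, and while glucose is plentiful it represses the genes for respiration and for the use of other carbon sources. As glucose declines the Snf1 kinase pathway lifts this repression, the Hap2/3/4/5 complex raises respiratory genes, low-affinity glucose transporters give way to high-affinity ones, and cells lay down glycogen and trehalose. When glucose is gone the culture passes through the diauxic shift and respires the ethanol it made. Ribosome production, by contrast, tracks growth through the protein kinase A and TOR pathways.

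Each value is a log2 ratio, culture over reference, with each array centred on its median, so that 0 is an equal ratio and 1 is 2-fold above the reference. The direction of the ratio is likely but is not stated by the labels. If it were turned, every sign below, the counts higher and lower and the order of the lists would turn with it. A difference is the level at 15.5 h minus the mean level at 11.5 and 13.5 h, on the same log2 scale. With 1 array at 15.5 h there is no replicate check and no test was made, so "higher" and "lower" below describe sizes on these arrays only. In RNA of a whole culture, fewer cells holding a transcript and less of it per cell cannot be told apart.

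The arrays compared held between 6180 and 6285 values each. Between spots of one gene the SD was 0.338 at 15.5 h, against 0.225 at 11.5 h and 0.186 at 13.5 h. For the difference itself, the SD between spots was 0.346 as a root mean square and 0.172 as a median over 65 genes spotted more than once. The labels give each array its own lot, so lot and time cannot be told apart.

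Over all 5174 genes the difference had a median of 0.02 and an SD of 0.39, and 2699 genes lay above 0. At least 2-fold higher at 15.5 h were 29 genes (0.56%), and at least 2-fold lower were 65 genes (1.26%). The preceding step, 13.5 h minus 11.5 h, served as a yardstick and had 22 genes (0.425%) at least 2-fold higher and 24 (0.464%) at least 2-fold lower. At the smaller threshold of 1.5-fold, 228 genes (4.41%) were higher and 287 (5.55%) lower at 15.5 h. Over genes, the 15.5 h array had the wider spread, with an SD of 0.517, against 0.346 at 11.5 h and 0.372 at 13.5 h. Scaling the arrays to one spread left 5 genes 2-fold higher and 41 lower. Against the 13.5 h array alone 11 genes (0.213%) were 2-fold higher and 46 (0.889%) lower, and against the 11.5 h array alone 97 (1.87%) were higher and 138 (2.67%) lower. At least 2-fold from both earlier arrays were 8 genes (0.155%) on the higher side and 41 (0.792%) on the lower.

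The genes past 2-fold were chosen by their levels at 11.5, 13.5 and 15.5 h, so their levels on those arrays follow from the choice and are given as a description. The 29 higher genes had median levels of -0.02 and 0.15 at 0 and 9.5 h, 0.23, 0.94 and 1.80 on the 3 arrays compared, and 2.39 and 1.96 at 18.5 and 20.5 h. The 65 lower genes had median levels of -0.29 and -0.32 at 0 and 9.5 h, 0.25, -0.06 and -1.18 on the 3 arrays compared, and 0.64 and 0.40 at 18.5 and 20.5 h. The lower genes also lay unevenly along the probe numbers of the table, as described at the end.

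Among 48 gene lists, 10 had at least 75% of their measured members above 0, 5 had at least 75% below 0, and 33 had neither. Over all genes 52.2% lay above 0. Lists with the highest medians were those of the respiratory chain, the tricarboxylic acid (TCA) cycle, the ATP synthase and the stress-induced chaperones. The lowest medians were those of lysine synthesis, at -0.38 over 7 genes, and ribosome biogenesis, at -0.37 over 88. With centring within runs of 40 probe numbers the lowest medians were -0.34 for ribosome biogenesis and -0.32 for branched-chain amino acid synthesis. Lysine synthesis then had -0.13 and was no longer among the lowest, with RNA polymerases I and III at -0.22 and amino acid permeases at -0.21 below it. The plot of list members shows each gene's difference.

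**Figure D1:**
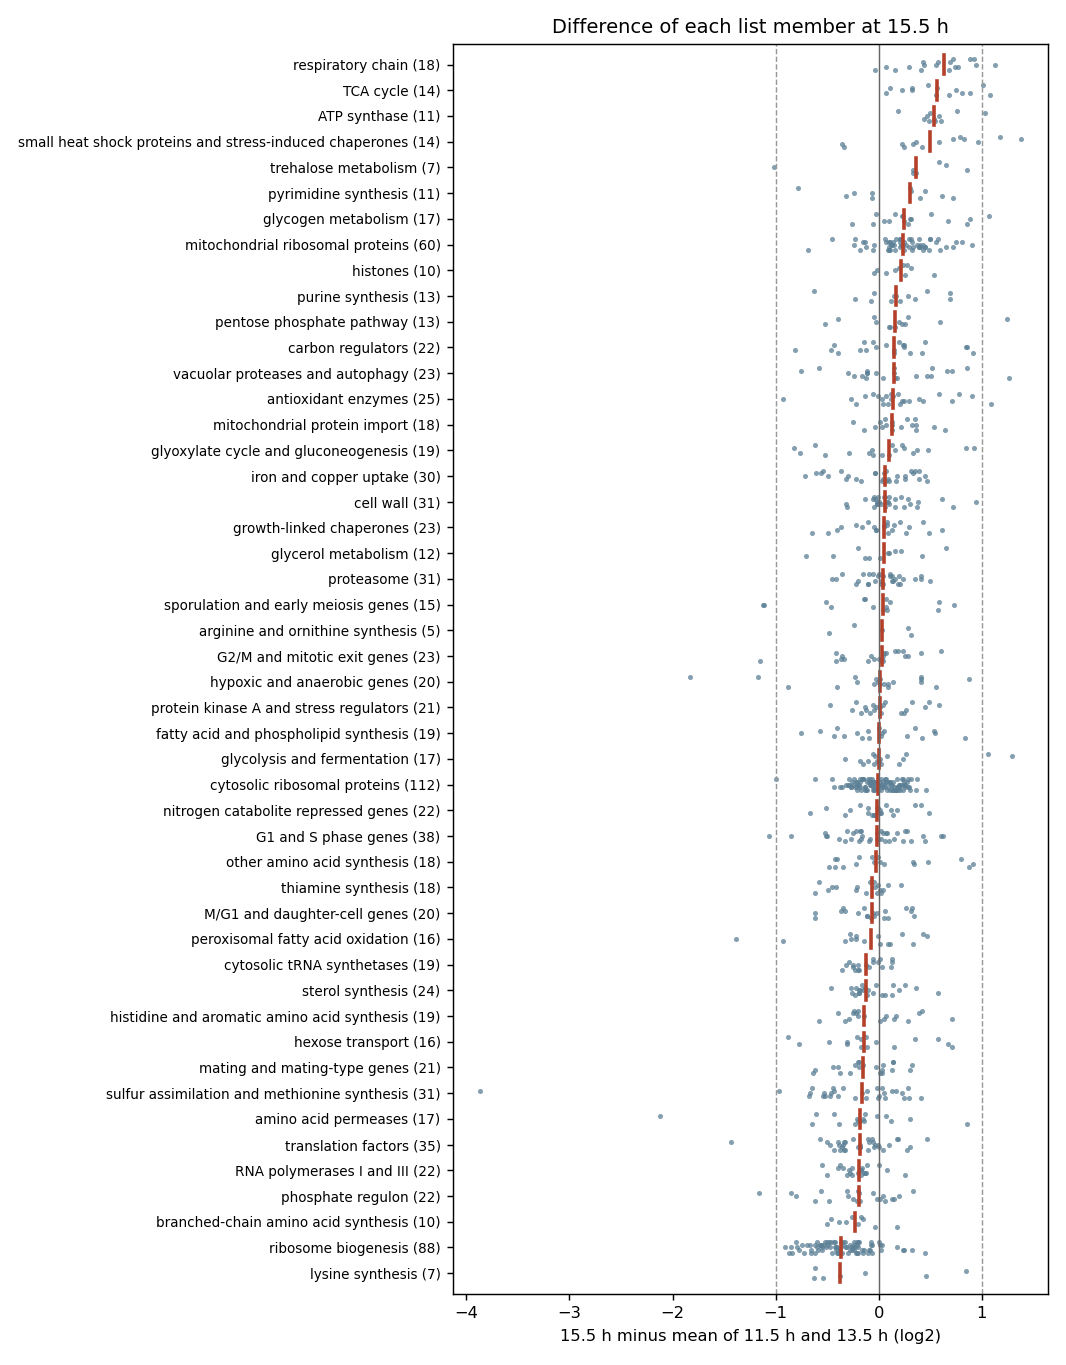
Each point is 1 measured gene of a list, placed by its difference between 15.5 h and the mean of 11.5 h and 13.5 h (log2, horizontal axis), and each bar is the list's median, with the number of measured genes in brackets. Dashed lines mark 2-fold. Respiratory lists stand at the top with medians of 0.63, 0.56 and 0.54, ribosome biogenesis stands near the bottom at -0.37, and most lists are centred near 0.

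Genes of mitochondrial respiration stood higher as a group at 15.5 h. In the TCA cycle, which oxidises acetyl-CoA in the mitochondrion, 14 of 14 measured genes lay above 0, with a median difference of 0.56. At least 1.5-fold higher were 6 of them, against 4.41% over all genes. MDH1 (YKL085W), the mitochondrial malate dehydrogenase, measured 0.23 at 11.5 h, 1.16 at 13.5 h and 1.78 at 15.5 h, a difference of 1.08 or 2.11-fold. LSC2, a subunit of succinyl-CoA ligase, measured 0.75, 1.18 and 1.98 at the same times, a difference of 1.01. Both genes were named for the size of this difference, so their place above the earlier arrays follows largely from that choice. Next came SDH2, the iron-sulfur subunit of succinate dehydrogenase, with 0.89, the citrate synthase CIT1 with 0.80 and SDH3, a membrane subunit of the same dehydrogenase, with 0.75. The smallest difference, 0.07, was that of KGD2, a subunit of ketoglutarate dehydrogenase.

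The respiratory chain had the same pattern, with 17 of 18 measured genes above 0 and a median difference of 0.63. At least 1.5-fold higher were 9 of these genes, against 4.41% over all genes. COX13, a subunit of cytochrome c oxidase, measured -0.05 at 11.5 h, 0.25 at 13.5 h and 1.23 at 15.5 h, a difference of 1.13. NDI1, the internal NADH dehydrogenase that stands in for complex I in this yeast, measured -0.34, 0.38 and 0.96. CYT1, which encodes cytochrome c1, measured 0.22, 0.47 and 1.27. The 3 genes were named for the size of their difference, so their place above the earlier arrays follows largely from that choice. They were higher still at 20.5 h, at 2.60 for COX13, 2.22 for NDI1 and 2.66 for CYT1. The exception on the low side was COR1, a core subunit of the bc1 complex, with a difference of -0.04.

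COX5A and COX5B encode alternative forms of one oxidase subunit, used with ample and with scarce oxygen. Their differences were 0.89 and 0.88, with COX5A at -0.19, 0.29 and 0.94 and COX5B at 0.68, 1.37 and 1.91 at 11.5, 13.5 and 15.5 h. Both forms were thus higher at 15.5 h by similar amounts. In the ATP synthase 11 of 11 genes lay above 0, with a median of 0.54. ATP4, a stator subunit, measured 0.19 at 11.5 h, 0.42 at 13.5 h and 1.33 at 15.5 h, a difference of 1.03, while ATP5 had the smallest, 0.19.

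These respiratory lists stood higher at each step. The median difference of the TCA cycle was 0.31 at 15.5 h against 13.5 h alone, and 0.41 at 13.5 h against 11.5 h. For the respiratory chain the same medians were 0.37 and 0.31. Both steps share the 13.5 h array. At 15.5 h against 11.5 h alone the medians were 0.74 for the cycle and 0.83 for the chain. With the arrays scaled to one spread they were 0.31 for the cycle, 0.43 for the chain and 0.36 for the ATP synthase. Proteins that build the mitochondrion had smaller differences. Of 60 mitochondrial ribosomal protein genes, 50 lay above 0 with a median of 0.24, led by MRPS17 at 0.91. At the other end was RSM18, also a small-subunit protein, at -0.68. Of 18 genes of mitochondrial protein import, 15 lay above 0 with a median of 0.13, and the chaperonin pair HSP10 and HSP60 had 0.64 and 0.54.

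**Figure D2:**
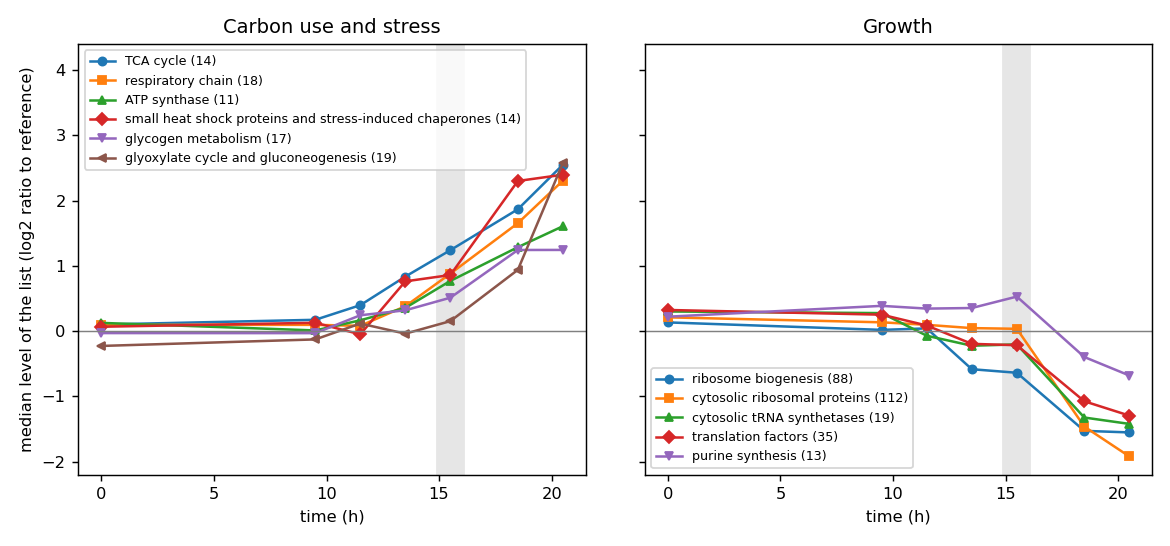
Median level of each list (log2 ratio to the reference, vertical axis) on the 7 arrays by time in hours, with the number of measured genes in brackets and the 15.5 h array shaded. Respiratory lists were above the reference at 15.5 h and higher later, whereas the glyoxylate and gluconeogenesis genes stood at 0.15 at 15.5 h, and the cytosolic ribosomal protein genes at 0.04.

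Reserve carbohydrate genes were also higher than the mean of the earlier arrays, but most of that distance had been covered by 13.5 h. In glycogen metabolism 14 of 17 genes lay above 0 with a median of 0.24. The glycogen synthase gene GSY2 measured 0.38 at 11.5 h, 2.10 at 13.5 h and 2.31 at 15.5 h, and its paralogue GSY1 measured 0.51, 2.11 and 2.19. Their differences of 1.06 and 0.88 therefore rest on the 11.5 h array, since against 13.5 h alone they were 0.20 and 0.08. PGM2, the major phosphoglucomutase, measured 0.69, 2.01 and 2.02, a difference of 0.67, while its paralogue PGM1 had -0.26. GDB1, the glycogen debranching enzyme, measured -0.35, 0.43 and 0.89, so its level was higher at each step.

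Trehalose genes showed the same early step. The list had 6 of 7 genes above 0, a median difference of 0.36, and a median of 0.02 against 13.5 h alone. TSL1, a regulatory subunit of trehalose synthase, measured -0.04 at 11.5 h, 1.29 at 13.5 h and 1.48 at 15.5 h, and the catalytic subunits TPS1 and TPS2 had differences of 0.65 and 0.58. The neutral trehalases NTH1 and NTH2, which break trehalose down, parted. NTH1 had a difference of 0.34 and NTH2 one of -1.02, with levels of 0.41, 0.89 and -0.37. NTH2 lies in a stretch of probe numbers with many low values, and centring within runs of 40 probe numbers brought it to -0.66.

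Stress proteins were higher again at 15.5 h than at 13.5 h, though by less than in the step before. Of 14 small heat shock proteins and stress-induced chaperones, 12 lay above 0, with a median of 0.50. The list had 2 genes at least 2-fold higher and 6 at least 1.5-fold higher, against 0.56% and 4.41% over all genes. HSP12, a small membrane-associated stress protein, measured 0.54 at 11.5 h, 1.77 at 13.5 h and 2.54 at 15.5 h, a difference of 1.38. HSP26, a small chaperone that holds unfolded proteins, measured 0.29, 1.25 and 1.94, a difference of 1.17. Both were above the reference on all 3 arrays and higher still at 18.5 h, at 3.50 and 3.59. The disaggregase HSP104 had 0.96 and the Hsp90 gene HSP82 had 0.79. On the low side were HSP31 with -0.36 and HSP30, a plasma membrane protein, with -0.34. The list's median was 0.21 against 13.5 h alone, 0.82 against 11.5 h alone and 0.33 with the arrays scaled to one spread.

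Antioxidant enzymes had 19 of 25 genes above 0 and a median of 0.14. The catalases parted, with the cytosolic catalase CTT1 at a difference of 0.90 and the peroxisomal catalase CTA1 at -0.93. AHP1, a thiol peroxidase, had a different course from other higher genes. It measured 0.13 at 0 h and 0.20 at 9.5 h, then -1.16 at 11.5 h, -1.03 at 13.5 h and -0.00 at 15.5 h, so its difference of 1.09 was a return to the level of the reference. Among vacuolar genes the aminopeptidase gene APE1 measured 0.47, 1.23 and 2.11 at 11.5, 13.5 and 15.5 h, a difference of 1.26. The autophagy gene ATG8, whose protein coats the growing autophagosome membrane, had 0.86, while ATG7, which activates Atg8, had -0.76. Over all 23 vacuolar and autophagy genes 13 lay above 0 and 10 below. The cell wall list had 20 of 31 genes above 0, 11 below and a median of 0.06, which was -0.02 without the second stretch of 1600 probe numbers and -0.04 with the arrays scaled. Of its mannoproteins SED1 had 0.94, YGP1 0.72 and SPI1 0.61, and these were its 3 genes of 31 at least 1.5-fold higher. Over all genes that share was 4.41%.

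At the entry of glucose into metabolism, the isozymes of glucose phosphorylation differed. GLK1, the glucokinase, measured 0.78 at 11.5 h, 1.04 at 13.5 h and 2.20 at 15.5 h, a difference of 1.29 or 2.45-fold. HXK1 measured 0.28, 1.21 and 1.80, a difference of 1.06. HXK2, the hexokinase that predominates on high glucose and also acts in glucose repression, measured 0.41, -0.04 and 0.38, a difference of 0.20. GLK1 and HXK1 were therefore highest at 15.5 h of these 3 arrays and HXK2 was not. GLK1 and HXK1 were named for the size of their difference, so their high 15.5 h value follows largely from that choice. YCL042W, a reading frame that shares 106 bases with GLK1, had a difference of 1.57, and the signals of both cannot be told apart on such arrays. The other 15 of the 17 glycolysis and fermentation genes lay between -0.33 for the pyruvate decarboxylase PDC5 and 0.27 for the glyceraldehyde-3-phosphate dehydrogenase TDH2, a near-identical copy of TDH3. The median of the 17 was -0.00.

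Hexose transporters were divided, in a list with 5 of 16 genes above 0 and a median of -0.15. HXT7, a high-affinity transporter, measured 0.86 at 11.5 h, 1.73 at 13.5 h and 1.97 at 15.5 h, a difference of 0.67. HXT4 measured 0.65, 1.45 and 1.62, a difference of 0.58, and both had covered most of the distance by 13.5 h. HXT6, whose sequence is nearly identical to that of HXT7, had 0.15, and signals of such copies may be shared. The galactose permease gene GAL2 had 0.71. On the low side, HXT2 measured 0.46, -0.11 and -0.60, a difference of -0.78. HXT5, a transporter of slow-growing cells, measured 0.60, 0.61 and -0.28, then 3.31 at 20.5 h. The low-affinity gene HXT1, chosen after its values were seen, measured 0.57, 0.29 and 0.12. Affinity is named here for HXT7 and HXT1 only, and a division of the list by affinity was not tested.

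**Figure D3:**
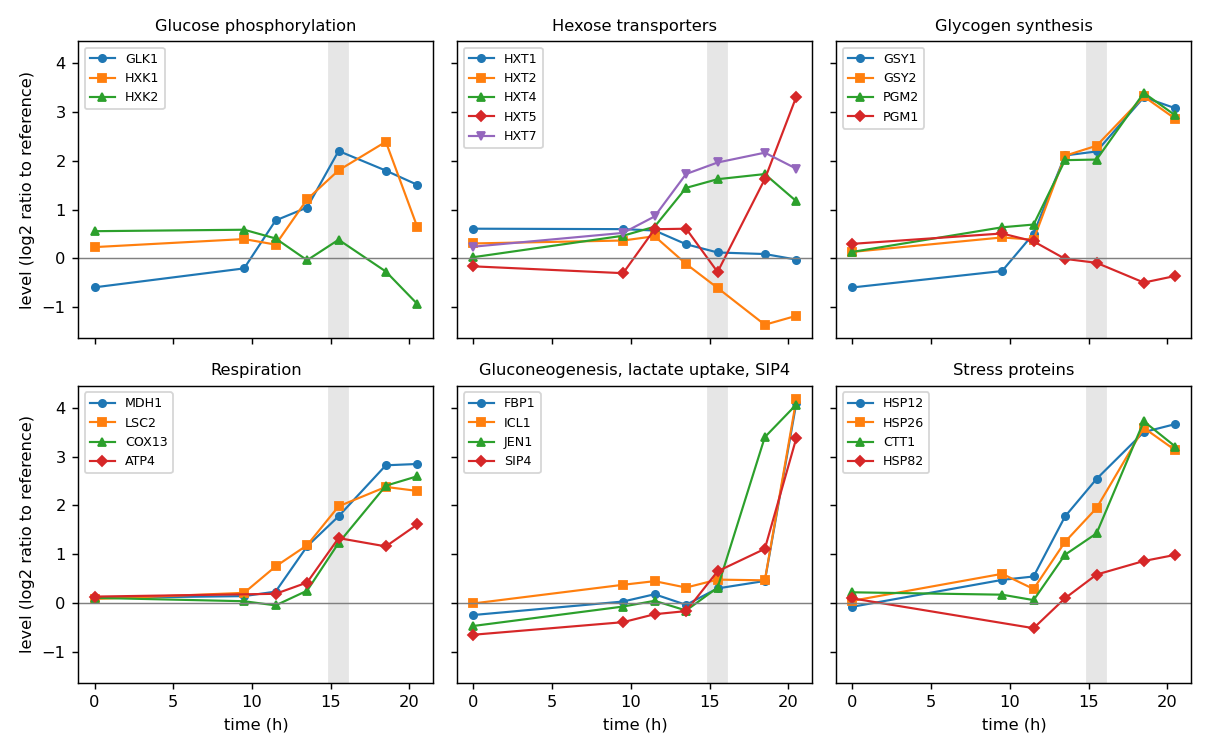
Levels of single genes (log2 ratio to the reference, vertical axis) on the 7 arrays by time in hours, 1 value per array, with the 15.5 h array shaded. GLK1 reached 2.20 at 15.5 h while HXK2 stood at 0.38, and FBP1, ICL1 and JEN1 stood below 0.5 at 15.5 h and above 4 at 20.5 h. HSP82 has no value at 9.5 h and its line crosses the gap.

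Genes for making sugar from ethanol and acetate did not stand apart from 0 as a group. The glyoxylate cycle and gluconeogenesis list had 11 of 19 genes above 0 and a median difference of 0.10. ICL1, isocitrate lyase, FBP1, fructose-1,6-bisphosphatase, and JEN1, the lactate transporter, were chosen after their values were seen, as textbook glucose-repressed genes. They measured 0.48, 0.30 and 0.31 at 15.5 h, with differences of 0.10, 0.23 and 0.37. At 20.5 h they measured 4.17, 4.10 and 4.06. ALD4, the mitochondrial aldehyde dehydrogenase, measured 0.25 at 11.5 h, 1.22 at 13.5 h and 1.66 at 15.5 h, and MDH2, the cytosolic malate dehydrogenase, measured -0.11, -0.25 and 0.66. These 2 genes had the largest positive differences of the list, 0.92 and 0.84. Lower at 15.5 h were the carnitine acetyltransferase gene YAT2 at -0.82, the peroxisomal citrate synthase gene CIT2 at -0.76 and the cytosolic aldehyde dehydrogenase gene ALD6 at -0.62.

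Among 22 regulators of carbon use, 13 (59.1%) lay above 0, against 52.2% over all genes. Their median difference was 0.15, or -0.02 against 13.5 h alone. Of the 22, 0 reached 2-fold, while over all genes 0.56% were 2-fold higher and 1.26% lower. The largest differences belonged to genes of the transporter regulation pathway. RGT1, the repressor of hexose transporter genes, measured -0.39 at 11.5 h, -0.24 at 13.5 h and 0.59 at 15.5 h, a difference of 0.91. MTH1, a partner that Rgt1 needs to repress, measured 0.41, 0.37 and 1.24, a difference of 0.86, whereas its paralogue STD1 had -0.40. SIP4, an activator of gluconeogenic genes, measured -0.23, -0.17 and 0.65, a difference of 0.85. All 3 were flat between 11.5 and 13.5 h. Their higher 15.5 h value follows largely from their being named for the size of the difference. The repressor gene MIG3 had -0.81. HAP4, the activating subunit of the Hap complex, named after its values were seen, measured 1.0, 1.0 and 1.25, then 2.75 at 18.5 h.

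The machinery that makes ribosomes stood lower at 15.5 h than over the earlier arrays, while ribosomal proteins themselves did not. Of 88 ribosome biogenesis genes 80 lay below 0, with a median difference of -0.37 and 18 at least 1.5-fold lower, against 5.55% over all genes. Nearly all of this distance lay before 13.5 h, since the median difference was -0.06 at 15.5 h against 13.5 h alone and -0.62 at 13.5 h against 11.5 h. DBP8, an RNA helicase of small-subunit assembly, measured 0.33 at 11.5 h, -0.59 at 13.5 h and -1.04 at 15.5 h. ARX1, a factor for export of the large subunit, measured 0.22, -0.83 and -1.18. Their differences were -0.91 and -0.87, followed by RRP1 at -0.85, PWP2 at -0.84 and LTV1 at -0.80. Of the subunits of RNA polymerases I and III, which transcribe ribosomal and transfer RNA, 20 of 22 lay below 0 with a median of -0.19, led by RPC82 at -0.55. Against 13.5 h alone 12 of 22 were below 0 with a median of -0.04.

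The 112 cytosolic ribosomal protein genes were divided, with 54 above and 58 below 0, and had a median difference of -0.01. Their median difference was 0.02 at 15.5 h against 13.5 h alone and -1.54 at 18.5 h against 15.5 h. RPS8B had the largest difference, -1.0, with 1.30 at 11.5 h, 0.12 at 13.5 h and -0.29 at 15.5 h, and many of these genes have a near-identical copy whose signal may be shared. Translation factors had 27 of 35 genes below 0 and a median of -0.18. GCD6, a catalytic subunit of initiation factor eIF2B, had -1.43, and YEF3, elongation factor 3, had 0.47. Cytosolic tRNA synthetases had 14 of 19 below 0 and a median of -0.12, with TYS1 lowest at -0.36. Against 13.5 h alone the medians were -0.05 for the factors and -0.02 for the synthetases. With centring within runs of 40 probe numbers the median of the factors was -0.10.

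Some genes were highest at 15.5 h and lower afterwards, and they were singled out after the values were seen. Of 4807 genes with a value on all 7 arrays, 8 were at least 1.5-fold higher at 15.5 h than on every other array. The same count was 3 for the 11.5 h array, 0 for 13.5 h, 38 for 9.5 h and 160 for 18.5 h. The 8 genes were GCV3, GCV1, WSC4, SHM2, UBP15, BNA5, SNL1 and URA4. Their lower levels on the other arrays follow from that choice and are given as a description. GCV1 and GCV3 encode the T and H subunits of the glycine cleavage complex, which releases 1-carbon units from glycine in the mitochondrion. GCV1 measured 0.83, 1.56, 2.38 and 0.44 on the arrays of 11.5, 13.5, 15.5 and 18.5 h. GCV3 measured 0.28, 0.91, 1.74 and 0.42 at the same times.

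SHM2, the cytosolic serine hydroxymethyltransferase, which makes 1-carbon units from serine, measured 0.74, 0.42, 1.5 and -1.10 from 11.5 to 18.5 h. GCV2, the decarboxylating subunit of the cleavage complex, measured -0.28, -0.18, -0.43 and -0.81 and did not follow its partners. The mitochondrial isozyme SHM1 had a difference of -0.35. GCV1 and GCV3 were 2 of the 29 genes at least 2-fold higher, and both were nearer the reference at 18.5 and 20.5 h than at 13.5 h. Each of these genes has a single spot.

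Purine synthesis, which takes up 1-carbon units at several steps, had 9 of 13 genes above 0, against 52.2% over all genes. Its median difference was 0.17, or 0.03 with the arrays scaled to one spread. Against 11.5 h alone the median was 0.10, and against 13.5 h alone 0.255. ADE4, the enzyme of the first committed step, measured 0.14, 0.35, 0.94 and -1.34 on the arrays of 11.5, 13.5, 15.5 and 18.5 h, a difference of 0.69. ADE8 also had 0.69, ADE2 had 0.47 and ADE12 had 0.35. GUA1, the GMP synthase, lay on the other side with -0.63. The list's median level was 0.35, 0.35, 0.53 and -0.40 on the arrays of 11.5, 13.5, 15.5 and 18.5 h. In pyrimidine synthesis URA3 had 0.72 and the dihydroorotase gene URA4 had 0.61, while the CTP synthase gene URA7 had -0.78, with 6 of 11 genes above 0.

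The list of other amino acid synthesis genes had 8 of 18 above 0, 10 below and a median of -0.03. At least 1.5-fold higher were 4.41% of all genes and 3 genes of this list, SHM2, GDH1 and GLN1. The last 2 bring ammonia into amino acids. GDH1, the main NADPH-dependent glutamate dehydrogenase, measured -0.05, -0.29, 0.71 and -0.94 on the arrays of 11.5, 13.5, 15.5 and 18.5 h, a difference of 0.88. GLN1, glutamine synthetase, measured -0.15, 0.08, 0.76 and -1.34 at those times, a difference of 0.79. In both genes the 18.5 h value was the lowest of these 4. Both were named for the size of their difference, so the high 15.5 h value follows largely from that choice. Branched-chain synthesis had 9 of 10 genes below 0 with a median of -0.23, led by ILV1, threonine deaminase, at -0.50. Most of this distance lay before 13.5 h. Its median was -0.37 at 13.5 h against 11.5 h, and -0.12 at 15.5 h against 13.5 h alone, with 7 of 10 below 0. Lysine synthesis had a median of -0.38 with 5 of 7 genes below 0, or -0.13 with centring within runs of 40 probe numbers and -0.18 with the arrays scaled, while LYS21, a homocitrate synthase, had 0.85 and its paralogue LYS20 -0.13. Histone genes had 8 of 10 above 0 and a median of 0.22, with HHF1 at 0.54.

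**Figure D4:**
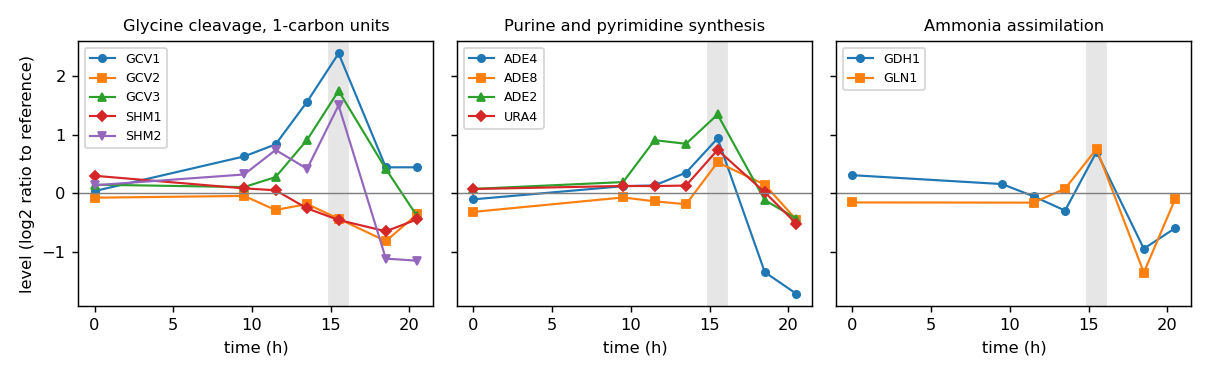
Levels of single genes (log2 ratio to the reference, vertical axis) on the 7 arrays by time in hours, 1 value per array, with the 15.5 h array shaded. GCV1, GCV3 and SHM2 reached 2.38, 1.74 and 1.5 at 15.5 h and were lower at 18.5 h, while GCV2 stayed below 0 and GDH1 and GLN1 stood at 0.71 and 0.76. GLN1 has no value at 9.5 h and its line crosses the gap.

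Genes of phosphate supply had 15 of 22 below 0 and a median difference of -0.20, short of the 75% on one side used above. Their median was -0.06 against 13.5 h alone, -0.10 with centring within runs of 40 probe numbers and -0.06 without the second stretch of 1600 probe numbers, where PHO11, PHO12 and PHO5 lie. The secreted acid phosphatase gene PHO11 measured 0.30 at 11.5 h, -0.35 at 13.5 h and -1.19 at 15.5 h, a difference of -1.16. Its close copy PHO12 had -0.56, and PHO5 and PHO3 had -0.80 and -0.62. The sodium-coupled phosphate transporter gene PHO89 had -0.85, with 0.55, -0.96 and -1.05 on the 3 arrays, so its step came before 13.5 h. Of the cell cycle genes, DBF2, a kinase of mitotic exit, had the largest difference in its list. It measured 0.03, -0.79 and -1.53, then -2.34 at 18.5 h.

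The single largest positive difference was that of OM45 (YIL136W), a protein of the mitochondrial outer membrane, which measured 0.34 at 11.5 h, 0.00 at 13.5 h and 2.61 at 15.5 h. Its difference of 2.44 is 5.42-fold, and its level at 18.5 h was 3.70. BDH2, a putative alcohol dehydrogenase, had 1.43, with -0.35, -0.10 and 1.21. GAD1, glutamate decarboxylase, had 1.38, with 1.01, 2.08 and 2.92. RNY1, a vacuolar ribonuclease, had 1.31, SOL4, a 6-phosphogluconolactonase, had 1.24, and TFS1, an inhibitor of carboxypeptidase Y, had 1.18. YJL218W had 1.13. OM45, BDH2 and YJL218W were no higher than 0.34 at 11.5 and 13.5 h, whereas GAD1 was already above it at 11.5 h. Each of the 29 genes rests on 1 spot per array.

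The largest negative differences belonged to single spots with a low value at 15.5 h. IMA5, an alpha-glucosidase, measured -0.12, -0.26, -6.28 and 1.02 on the arrays of 11.5, 13.5, 15.5 and 18.5 h. STR3, cystathionine beta-lyase, measured -0.07, -0.58, -4.19 and 1.38, and it was also low at 9.5 h, at -3.49. YGL138C had a difference of -3.03, the sporulation gene SPO77 -2.88, the Sir2-family deacetylase gene HST4 -2.72, RCI50 -2.68, the mitochondrial F-box gene MFB1 -2.63 and the anion transporter gene SOA1 -2.39. SPO74 had -2.17, the arginine permease gene ALP1 and the GATA-factor gene GAT3 had -2.12 each, CNM1 -1.97, RRG8 -1.89, the sterol regulator gene UPC2 -1.83 and YBR138C -1.77. Of the 65 lower genes, 13 were in any list, and no list held more than 2 of them. The lists with 2 were sporulation and early meiosis, with 15 measured genes, and hypoxic and anaerobic genes, with 20. Over all genes the share was 1.26%.

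The lower genes were unevenly spread along the probe numbers, and the labels do not say how these numbers map to places on the slide. In 4 stretches of 1600 numbers, counted from 1 upward, they fell as 10, 44, 5 and 6 genes. The stretches held 1298, 1364, 1212 and 1300 of the genes compared. The 29 higher genes were spread as 4, 2, 13 and 10 over the same stretches. The median difference over genes was -0.06, -0.09, 0.06 and 0.18 over them. For the step from 11.5 to 13.5 h the 24 genes at least 2-fold lower were spread as 1, 6, 1 and 16. One run of 40 probes, 1921 to 1960, held 7 probes at least 2-fold lower, among them those of HST4, GCD6, UPC2 and MFB1, and 4 was the most in any other run.

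Of 4807 genes with a value on all 7 arrays, 52 were lowest at 15.5 h by at least 1.5-fold, and 38 of these lay in the second stretch. The count of genes lowest by that margin was 4 for 11.5 h and 1 for 13.5 h. It was 18 for 0 h, 33 for 9.5 h, 152 for 18.5 h and 169 for 20.5 h. The part of probe position in the lower genes was not tested. With centring within runs of 40 probe numbers, which keeps all genes, the numbers of genes at least 2-fold higher at 15.5 h and lower were 26 and 53. Without the second stretch they were 24 and 23, over the 3819 genes left. The list medians were 0.49 for the TCA cycle, 0.53 for the respiratory chain, 0.53 for the stress-induced chaperones and -0.41 for ribosome biogenesis without it. With the centring within runs they were 0.56, 0.65, 0.59 and -0.34. The 4 medians kept their side of 0 under both settings.

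**Figure D5:**
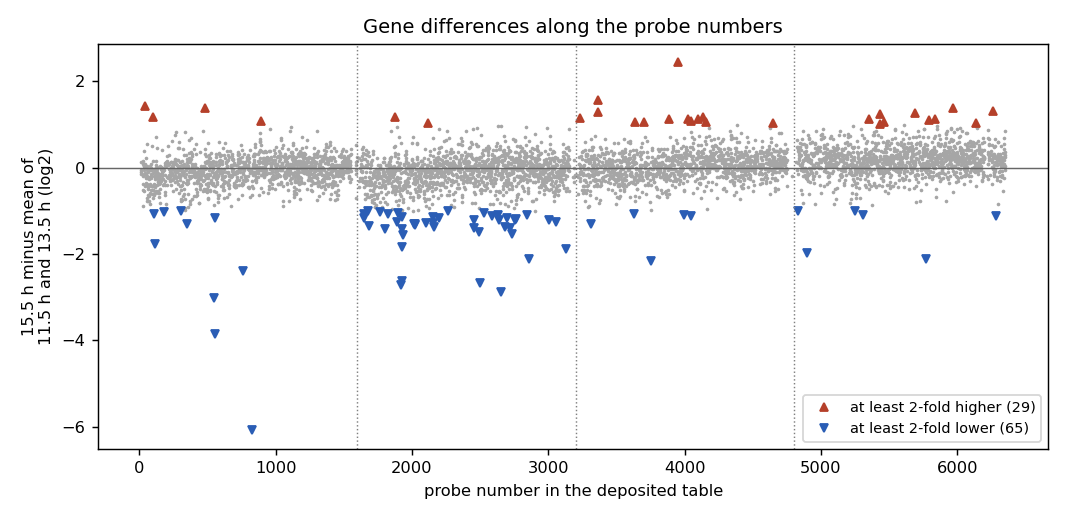
Difference of each gene between 15.5 h and the mean of 11.5 h and 13.5 h (log2, vertical axis) against its probe number in the deposited table, with dotted lines between stretches of 1600 numbers. Upward triangles mark the 29 genes at least 2-fold higher and downward triangles the 65 at least 2-fold lower, of which 44 lie in the second stretch.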

How the data were processed

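Total RNA of 7 samples of a yeast glucose time course was hybridised on 2-colour arrays against 1 common reference. The deposited values are log2 ratios made by the authors. The log base is not labelled and was read from the values. Quotients of small integers can recur in such ratios, and at 64 positions where base 2 puts them 169 values were found, where nearby positions gave 119. Per the labels, ScanAlyze 2.41 was the scanning software. The labels state no background correction, dye normalization or spot filter, and no signal level is known, so precision was judged from spots of one gene.

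Of 6400 probes, 5548 had 1 gene symbol and 852 had none. Symbols were matched to RefSeq by Entrez ID. Each array was centred on its median and spots of one gene were averaged (pandas 2.3.3, numpy 2.4.6), and 296 of 5470 genes were left out for a blank on any of the 3 arrays. Titles gave each sample its time, and each time was a group of 1. No test was possible with 1 array per time, so genes were counted past 2-fold and lists were described by medians and counts. The counting code was run on simulated arrays with planted changes larger than 2-fold. Their noise per array was smaller than the SD between spots at 11.5 h, 0.225, and at 15.5 h, 0.338. It was larger than that at 13.5 h, 0.186. That run checks the code and not how reliable the calls on these arrays are.

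Genes and lists were chosen with earlier results of these data known. Named were the 15 genes with the largest difference in each direction, up to 5 members per list by size of difference, and, in lists of at most 30 genes, extremes, members on the other side of 0 and paralogues. Promoter motifs were not analysed here. Alternatives changed the centring, the scaling, the earlier arrays, the call rule and the probes used.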

Additional observations from a re-analysis of the deposited data

Results flagged for a closer look

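Probes without a gene symbol were not used in the gene comparison. Of 760 such probes with a value on all 3 arrays, 25 lay at least 2-fold from the mean of the 11.5 and 13.5 h arrays at 15.5 h (3.29%), 5 higher and 20 lower, with differences from -2.53 to 1.63. Among the 5174 genes compared, 0.56% were at least 2-fold higher and 1.26% at least 2-fold lower. Of 752 probes without a symbol that had a value on the 0 h array, 7 lay at least 2-fold from the reference there. Of the genes compared, 44 lay at least 2-fold below the reference at 0 h and 0 above it. The labels do not say what the probes without a symbol hold.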

How the results depend on the processing

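No paired analysis was possible because each time point had 1 array and the labels carry no replicate numbers. Counts of genes at least 2-fold higher and lower, 29 and 65, depended on the call rule, the baseline and the scale. They were 97 and 138 against the 11.5 h array alone, 8 and 41 when both earlier arrays had to be passed, 5 and 41 with the arrays scaled to one median absolute deviation, and 228 and 287 at 1.5-fold. The count higher was 11 against 13.5 h alone and 50 with 9.5 h averaged in, and the count lower was 23 without the second stretch of 1600 probe numbers.

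The list medians that moved by more than the typical SD between spots did so mainly with the baseline. Against 13.5 h alone they were 0.31 for the TCA cycle, 0.37 for the respiratory chain, 0.024 for trehalose metabolism, 0.21 for stress-induced chaperones and -0.062 for ribosome biogenesis. Against 11.5 h alone they were 0.74, 0.83, 0.81, 0.82 and -0.67 for the same lists, -0.39 for RNA polymerases I and III, 0.26 for arginine synthesis, 0.07 for pyrimidine synthesis and -0.27 for thiamine synthesis. With scaling they were 0.31 for the TCA cycle, 0.43 for the respiratory chain, 0.36 for the ATP synthase, 0.33 for stress-induced chaperones and -0.18 for lysine synthesis. With 9.5 h averaged in, trehalose metabolism had 0.55 and pyrimidine synthesis 0.018. The remaining moves were 0.58 for trehalose metabolism without the second stretch of 1600 probe numbers, -0.13 for lysine synthesis with centring in runs of 40 probe numbers, and 0.12 for pyrimidine synthesis over genes with a value on all 7 arrays. The other 360 list values stayed within that SD. It is the SD of a single gene's difference and does not measure the error of a list median. Staying within it therefore does not show that a list median is stable. Against 13.5 h alone, for example, carbon regulators went from 0.15 to -0.02 and glycogen metabolism from 0.24 to 0.08. With scaling the cell wall list went from 0.06 to -0.04. Of the values for 259 named genes, 1810 stayed within the root mean square SD between spots and 154 did not. The 1.5-fold rule and the removal of that stretch were chosen after seeing the data. The baseline values follow from which arrays were subtracted, and the cause of the others was not tested. The table holds ratios only, so how far dim spots limit the single-gene values is unknown.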
